A study of Mus musculus with 2 samples.

Results

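The genes described here encode the subunits of the mitochondrial respiratory chain and of ATP synthase. They were chosen by symbol: all genes with the prefix mt-, and the nuclear genes of the Nduf, Sdh, Uqcr, Cox and Atp5 series whose symbols name subunits. Of 97 matching symbols, 90 had at least 100 UMIs (unique molecular identifiers, each counted as 1 captured transcript) over both expression matrices, out of 10600 genes that reached that count. These 90 members were 13 mitochondrially encoded and 77 nuclear encoded genes. The other 7 were nearly absent. Cox6a2 had 19 UMIs in all, a second entry for Atp5o 13, Cox4i2 10, Cox8c 3 and Ndufa4l2 1, and Cox7b2 and Cox8b had none.

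The respiratory chain passes electrons from NADH, through complex I, and from succinate, through complex II, to ubiquinone, then through complex III and cytochrome c to complex IV, which reduces oxygen. Complexes I, III and IV pump protons across the inner mitochondrial membrane, and ATP synthase, also called complex V, makes ATP from the return flow. The chain is built from 2 genomes: mitochondrial DNA encodes hydrophobic core subunits of complexes I, III, IV and V, while the other subunits of those complexes and all of complex II are encoded in the nucleus and imported. Acute myeloid leukemia cells are known to depend on oxidative phosphorylation in many settings.

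Single-cell RNA sequencing was performed on 1 library from oil-injected and 1 library from tamoxifen-injected recipient mice. The cells were mouse leukemia cells driven by AE9a, a truncated AML1-ETO (RUNX1-RUNX1T1) fusion that was delivered to fetal liver cells by an MSCV-IRES-GFP retrovirus, and were sorted from spleen as GFP+ Lin- c-Kit+ cells 3 days after the first injection. Both groups carried UBCER-Cre, in which the ubiquitin C promoter drives a tamoxifen-inducible recombinase, and floxed Usp18, the gene of a protease that removes ISG15 and restrains interferon signaling. The labels disagree on the genotype: the titles give Usp18 f/f and Usp18 delta/delta and the treatment field Usp18 f/f cells for both, whereas the treatment protocol describes Usp18 +/f and heterozygous depletion. The study describes the cells of a library as pooled from several mice. Both titles carry the words batch 2. A difference between mice, between captures, between the injected substances, in Cre activity or between genotypes cannot be told apart. With 1 library per group no test was possible, and the 95% exact intervals given in parentheses cover counting error only.

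Usp18 itself had 371 UMIs in the oil library and 933 in the tamoxifen library, or 5.62 and 15.4 CPM (counts scaled to an equal total per library), a log2 ratio of 1.45 (1.28 to 1.63). Whether the counted 3′ end lies in the deleted part was not stated in the sources used here. The level goes against the label, and the groups are named below by the injection only. The ratio was close to the median of the interferon-stimulated genes given below (1.44). The study reports stronger expression of interferon-stimulated genes after Usp18 depletion. Why Usp18 was higher was not tested. The matrices held 7774 and 7311 barcodes, of which 6838 oil and 6472 tamoxifen cells passed the limits of 500 or more genes and no more than 10% mitochondrial UMIs. These cells held 66045700 and 60661486 UMIs, with medians of 8622.5 and 8209.5 per cell, and 14 barcodes occurred in both libraries. Kit and Myb, markers of the sorted leukemia cells, had between 11305 and 14057 UMIs per library. Ptprc, which encodes CD45, had 9 and 3 UMIs and Cd34 5 and 15, so these usual markers of blood progenitors were close to absent. Summed markers of T cells (0 and 4 UMIs), B cells (15 and 14), neutrophils (3 and 2, with Ly6g, S100a8, Elane and Ltf at 0), endothelial cells (64 and 77) and monocytes and macrophages (418 and 379) were low in both libraries, whereas 6 erythroid genes (6139 and 7753 summed CPM) and 10 mast cell genes (2405 and 2027 summed CPM) were well detected. Of 12 measured interferon-stimulated genes 11 were called higher in the tamoxifen library, which means a log2 ratio of tamoxifen over oil of at least 0.32, and their median was 1.44. By the same size of ratio 27 of 42 S-phase genes (median -0.39) and 29 of 52 G2/M genes (median -0.35) were called lower.

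Some pairs of mitochondrial genes share bases on the same strand, which matters for their counts. The following stretches of mouse mitochondrial DNA (mm10, GENCODE M21 coordinates, plus strand, 5′ to 3′) show the shared bases in capitals with 25 bases on either side. The first pair, at chrM:7902-7994, shares 43 bases, and the other, at chrM:10142-10198, shares 7. mt-Atp6 and mt-Co3, which share 1 base at position 8607, are not shown.
mt-Atp8 and mt-Atp6: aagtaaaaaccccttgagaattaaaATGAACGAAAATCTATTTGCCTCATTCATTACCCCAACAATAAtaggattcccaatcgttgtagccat
mt-Nd4l and mt-Nd4: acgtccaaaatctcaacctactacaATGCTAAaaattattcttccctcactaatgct
In each pair the capitals begin with the start codon of the downstream gene, inside the coding sequence of the upstream gene. Each pair is known to be transcribed as a single messenger RNA. UMIs were taken near the 3′ end of a transcript, so a UMI given to mt-Atp8 or mt-Nd4l and one given to its partner may come from the same kind of molecule. How reads within shared bases were counted was not stated in the sources used here.

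The 2 genomes took nearly the same shares of all UMIs in both libraries. The 13 mitochondrially encoded genes held 6.80% of UMIs in the oil library and 6.83% in the tamoxifen library, a log2 ratio of tamoxifen over oil of 0.0057 (0.0038 to 0.0076). The cell filter used the mitochondrial share, so the same sum was taken over all barcodes, where it was 7.23% and 7.28% with a log2 ratio of 0.0095. The 77 nuclear encoded genes held 2.68% and 2.78%, a log2 ratio of 0.055 (0.052 to 0.058), and over all barcodes 2.65% and 2.75%. There were 2.54 mitochondrially encoded UMIs for every nuclear encoded UMI in the oil library and 2.45 in the tamoxifen library, a log2 difference of -0.050 (-0.053 to -0.046). The nuclear genes thus gained slightly on the mitochondrial genes beyond counting error, and there was no replicate to set this against. In the 673 oil and 771 tamoxifen cells with 1000 or more genes and no more than 5% mitochondrial UMIs the nuclear sum turned, with a log2 ratio of -0.013 (-0.024 to -0.00086). The mitochondrial sum, which that limit caps, had a log2 ratio of -0.00051 there, and its interval (-0.0094 to 0.0084) held 0.

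The small sums hid wide differences between genes. In the tamoxifen library 3 mitochondrial and 17 nuclear genes, 20 of the 90 members, were called higher, against 6.92% of the 10600 genes, and 2 nuclear genes and no mitochondrial gene were called lower, against 10.8% of all genes. The nuclear members ranged from a log2 ratio of -0.35 for Sdhb to 0.86 for Cox6b2, with a median of 0.015 (all 10600 genes, -0.063). Counting error was small beside this range: the interval lay above 0 for 38 nuclear members, below 0 for 37 and held 0 for 2. The genes therefore split about evenly, with the higher genes shifted further than the lower ones. The split of calls depends on the library total: 39.1% of the genes called either way were higher, and 61.8% when mitochondrial and cytosolic ribosomal protein genes were left out of the total, where 25 members were called higher, among them the 20 counted first, and 0 lower.

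**Figure D1:**
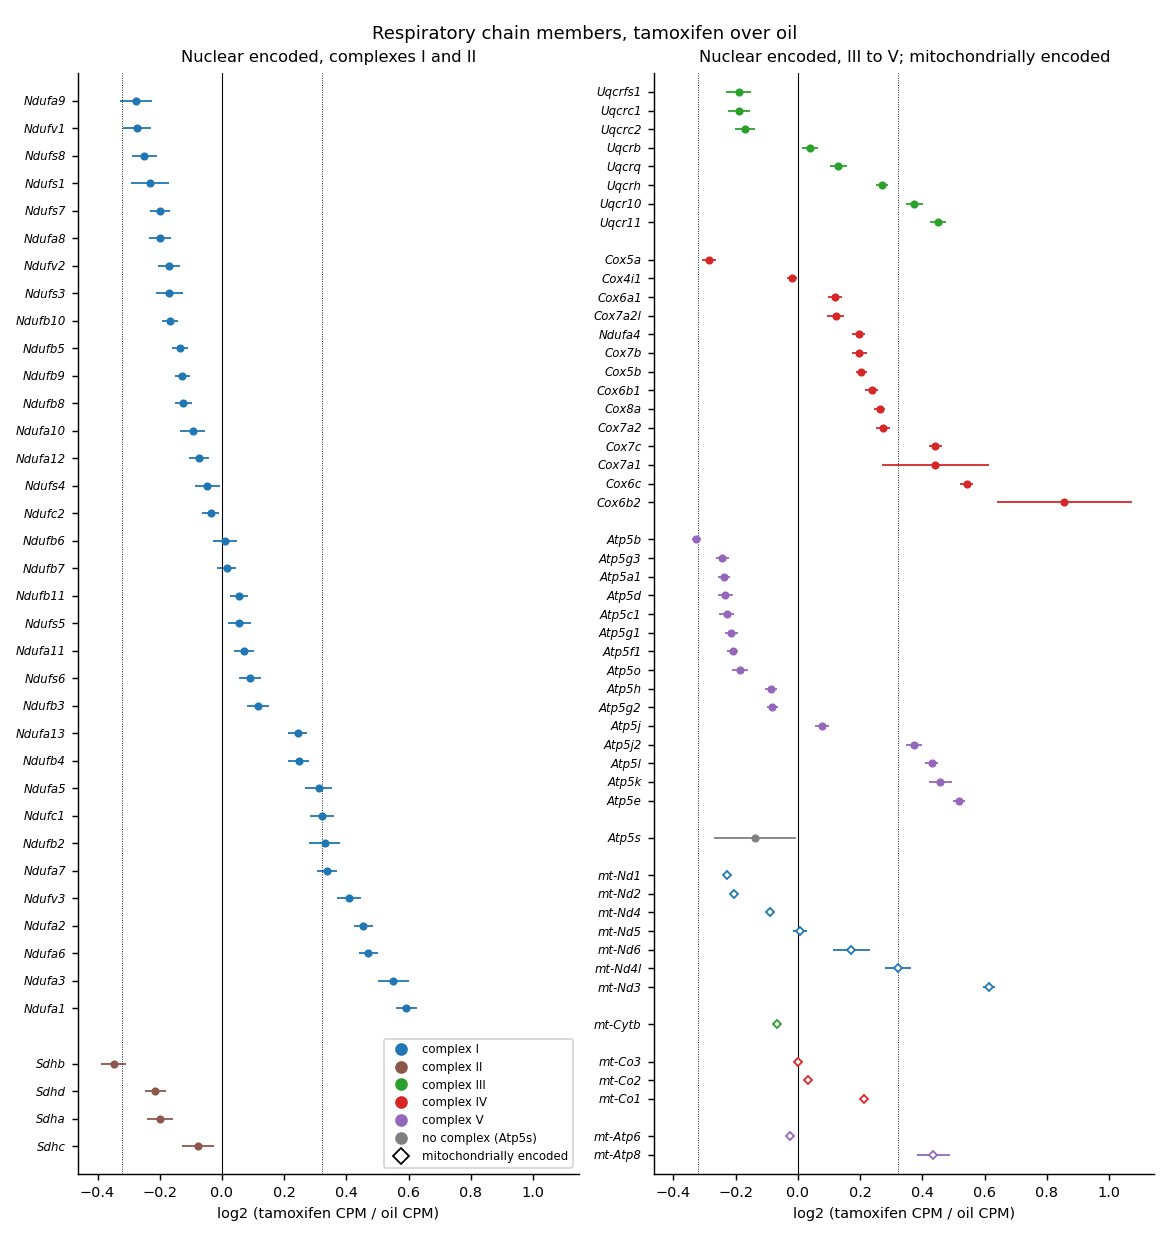
Log2 ratio of CPM (tamoxifen over oil, x axis) for the members reported here, 1 point per gene with its 95% exact counting interval. Points are grouped by genome and complex and colored by complex, with open diamonds for mitochondrially encoded genes. Points for Cox6b2, mt-Nd3 and Ndufa1 sit farthest to the right (0.86, 0.61 and 0.59) and Sdhb farthest to the left (-0.35), and all 4 genes of complex II lie left of 0.

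Among the mitochondrial genes, subunits of the same complex differed in opposite directions. For complex I, mt-Nd1 had 4517 CPM in the oil and 3853 CPM in the tamoxifen library, a log2 ratio of -0.23 (-0.24 to -0.22). mt-Nd2 had 3641 and 3159 CPM (-0.20), and mt-Nd4 3787 and 3561 CPM (-0.089). These 3 genes encode large subunits of the membrane arm. Against them, mt-Nd3, which encodes a small membrane subunit near the quinone site, had 591.5 and 905.3 CPM, a ratio on the log2 scale of 0.61 (0.60 to 0.63). The small membrane subunit mt-Nd4l had 133.2 and 166.5 CPM (0.32), and mt-Nd6, the only member transcribed from the light strand, 69.4 and 78.1 CPM (0.17). For mt-Nd5, whose 3′ end overlaps that of mt-Nd6 on the opposite strand, the values were 550.4 and 553.1 CPM, and the interval held 0.

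The mitochondrial genes of complex IV were level or higher. mt-Co1, which carries the oxygen-reducing site, had 9412 CPM in the oil library and 10900 CPM in the tamoxifen library, a log2 ratio of 0.21 (0.21 to 0.22). mt-Co2, which receives electrons from cytochrome c, had 10937 and 11195 CPM (0.034), and mt-Co3 had 13978 CPM in both. The single mitochondrial gene of complex III, mt-Cytb, which encodes cytochrome b, had 4358 and 4159 CPM (-0.067). For ATP synthase, mt-Atp6, part of its proton channel, had 15941 and 15651 CPM (-0.026), whereas mt-Atp8, a small membrane subunit, had 76.7 and 103.8 CPM (0.44).

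In both pairs printed above the shorter, upstream gene gained on its partner. mt-Atp8 had 0.481 UMIs per 100 UMIs of mt-Atp6 in the oil library and 0.663 in the tamoxifen library, a log2 difference of 0.46 (0.41 to 0.52). mt-Nd4l had 3.52 UMIs per 100 UMIs of mt-Nd4 and then 4.68, a log2 difference of 0.41 (0.37 to 0.45). These ratios do not depend on the library total. mt-Atp6 and mt-Co3, with log2 ratios of CPM of -0.026 and close to 0, showed no such gain. The signs of mt-Atp6, mt-Co3, mt-Nd5 and mt-Cytb, all with log2 ratios under 0.1 in size, turned under at least 1 other cell filter, cell weighting or library scaling.

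**Figure D2:**
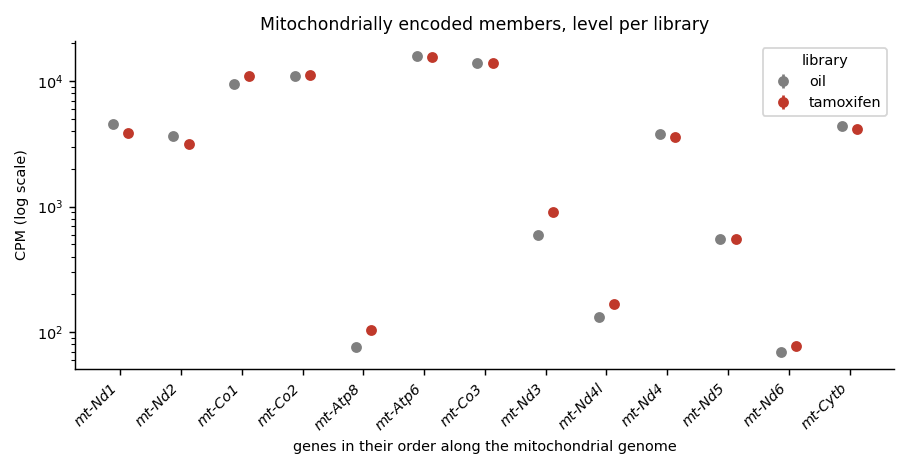
CPM (y axis, log scale) of the 13 mitochondrially encoded genes in the oil and tamoxifen libraries, 1 point per library with its 95% exact counting interval, mostly smaller than the point, in their order along the mitochondrial genome. The tamoxifen point is highest above the oil point for mt-Nd3 (591.5 and 905.3 CPM) and lies below it for mt-Nd1 and mt-Nd2.

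The nuclear genes of complex I differed by role in their sums. Role went only in part with transcript length here. Core transcripts had 983 to 2661 nt. Those of the accessory genes ran from 419 nt (Ndufa1) to 4371 nt (Ndufb2), with Ndufa3 at 515 and Ndufa6 at 590 nt. All 7 core subunits, which bind the flavin, the iron-sulfur clusters or the quinone, had log2 ratios between -0.27 and -0.17, and their summed UMIs had a log2 ratio of -0.22 (-0.23 to -0.20). Ndufv1, which binds the flavin that takes electrons from NADH, had 142.9 CPM in the oil and 118.2 CPM in the tamoxifen library (-0.27). The 28 accessory subunits, which surround the core, summed to a log2 ratio of 0.093 (0.087 to 0.099), and 7 of them were called higher. Ndufa1, a small membrane subunit needed for assembly of the complex, had 174.6 and 263.3 CPM, giving a log2 ratio of 0.59 (0.56 to 0.63). Ndufa3 had 90.7 and 132.9 CPM (0.55), and Ndufa6 226.1 and 313.4 CPM (0.47). The accessory genes were themselves divided, with 18 of 28 positive and 10 with an interval below 0. Ndufa9, which sits beside the quinone site, had 110.8 and 91.5 CPM (-0.28), the lowest ratio among the nuclear genes of complex I.

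Complex II, or succinate dehydrogenase, also works in the tricarboxylic acid cycle, and its 4 genes were all lower in the tamoxifen library. Together they held 0.0666% of UMIs in the oil library and 0.0571% in the tamoxifen library, a log2 ratio of -0.22 (-0.24 to -0.20). Sdhb, the iron-sulfur subunit, had 176.0 and 138.3 CPM, giving a log2 ratio of -0.35 (-0.39 to -0.31), and was 1 of the 2 members called lower. Sdha, the flavin subunit, had 154.0 and 134.1 CPM (-0.20). Of the membrane anchors, Sdhd had 238.4 and 205.5 CPM (-0.21) and Sdhc 97.7 and 92.6 CPM (-0.077). Sdhc was the exception under another scaling, since its log2 ratio was 0.0060 when mitochondrial and cytosolic ribosomal protein genes were left out of the library total.

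The large and small nuclear subunits of complex III differed in direction. Uqcrfs1, the Rieske iron-sulfur protein, had 165.8 CPM in the oil and 145.3 CPM in the tamoxifen library (-0.19), and the core proteins Uqcrc1 and Uqcrc2 had 224.9 and 197.3 CPM (-0.19) and 242.8 and 215.8 CPM (-0.17). These 3 large subunits summed to a log2 ratio of -0.18 (-0.20 to -0.16). The 5 small subunits summed to 0.26 (0.25 to 0.27), and each was positive. Uqcr11 had 339.8 and 464.8 CPM (0.45), Uqcr10 299.1 and 387.5 CPM (0.37), and Uqcrh, the acidic hinge protein that helps bind cytochrome c, 544.9 and 657.4 CPM (0.27).

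The nuclear genes of complex IV, which surround the mitochondrially encoded core, were mostly higher. They held 0.678% of UMIs in the oil library and 0.774% in the tamoxifen library, a log2 ratio of 0.19 (0.19 to 0.20), and 12 of 14 were positive. Cox6c had 491.5 and 715.9 CPM (0.54) and Cox7c 481.4 and 653.7 CPM (0.44). Cox5a, a subunit on the matrix side, and Cox4i1, one of the largest nuclear subunits, were the 2 negative genes: Cox5a had 541.8 and 444.8 CPM (-0.28) and Cox4i1 had 985.0 and 972.9 CPM (-0.018). Cox6a1 had 454.6 and 493.8 CPM (0.12). The highest ratio of any member was that of Cox6b2, the isoform known from testis, with 284 UMIs in the oil library and 472 in the tamoxifen library, or 4.30 and 7.78 CPM, giving a log2 ratio of 0.86 (0.64 to 1.07). Cox7a1, the isoform known from heart and skeletal muscle, had 508 and 634 UMIs, or 7.69 and 10.5 CPM (0.44; 0.27 to 0.61).

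These tissue isoforms were minor beside the general isoforms of the same subunit. Cox6b1 had 34801 UMIs in the oil and 37687 in the tamoxifen library (0.24), and Cox7a2 28909 and 32075 UMIs (0.27). The isoforms Cox4i2 (4 UMIs in each library) and Cox6a2 (10 and 9) were at the edge of detection, where their partners Cox4i1 and Cox6a1 had between 29954 and 65052 UMIs per library. Cox8a, the general isoform of subunit VIII, had 52987 and 58404 UMIs (0.26). Cox7a2l, which helps join complexes III and IV into supercomplexes, had 21095 and 21072 UMIs (0.12 on the CPM scale). The 3 genes for the same c-ring protein of ATP synthase were all detected: Atp5g1 with 40509 and 32067 UMIs (-0.21), Atp5g2 with 51048 and 44287 (-0.082) and Atp5g3 with 40901 and 31737 (-0.24).

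ATP synthase held both of the patterns seen above. Its 15 nuclear genes held 0.928% of UMIs in the oil library and 0.890% in the tamoxifen library, a log2 ratio of -0.060 (-0.065 to -0.055), which turned to 0.011 when mitochondrial and cytosolic ribosomal protein genes were left out of the library total. Atp5b, the catalytic beta subunit, had 1401.7 and 1117.4 CPM, giving a log2 ratio of -0.33 (-0.34 to -0.31), and was the other member called lower. Atp5a1, its alpha partner, had 795.7 and 674.6 CPM (-0.24), and Atp5g3 had 619.3 and 523.2 CPM (-0.24). The 4 head subunits other than Atp5e summed to a log2 ratio of -0.27, the c ring to -0.17 and the peripheral stalk, which holds the head still, to -0.10. The epsilon subunit Atp5e went the other way, with 520.7 and 745.6 CPM (0.52; 0.50 to 0.54). So did the 3 small membrane subunits, which help ATP synthase form dimers and summed to a log2 ratio of 0.42 (0.40 to 0.43): Atp5k had 162.4 and 223.1 CPM (0.46), Atp5l 547.2 and 737.3 CPM (0.43), and Atp5j2 was the lowest of them at 0.37. Atp5s, a coupling factor counted in no complex here, had 15.5 and 14.1 CPM (-0.14).

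Set against each other, some complexes differed more than the 2 genomes did and others less: nuclear complex IV against complex III had a log2 difference of 0.033. The nuclear genes of complex IV had 10.2 UMIs for each UMI of complex II in the oil library and 13.6 in the tamoxifen library, a log2 difference of 0.42 (0.39 to 0.44), which was the widest among the pairs of nuclear complexes. Complex V against complex IV went the other way, from 1.37 to 1.15 UMIs (-0.25). Among the mitochondrial genes, complex IV gained on complex I, from 2.58 to 2.94 UMIs (0.19). Within a complex, the mitochondrially encoded UMIs per nuclear encoded UMI went from 1.77 to 1.58 for complex I (-0.16), from 1.73 to 1.48 for complex III (-0.23) and from 5.06 to 4.66 for complex IV (-0.12). Only complex V, of these 4, moved toward the mitochondrial genes, from 1.73 to 1.77 (0.036; 0.029 to 0.043).

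The direction went with the length of the transcript. The split described here was chosen after the values had been seen. Length also went with role and complex: transcripts of complex II had 1142 nt or more and those of the large complex III subunits 1363 nt or more. Length was therefore not told apart from role or complex. All 19 nuclear members with a transcript under 600 nt were positive, with a median log2 ratio of 0.44 and 13 of them (68.4%) called higher. Of all 228 genes under 600 nt 86 (37.7%) were called higher, and of the 22 cytosolic ribosomal protein genes of that length 14 (63.6%). The 26 members of 600 to under 1000 nt had a median of 0.012, the 25 of 1000 to under 2000 nt a median of -0.17, and the 7 of 2000 nt and over a median of -0.20. Short members summed to a log2 ratio that was 0.47 above that of members of 1000 nt and over. Of the 25 members of 1000 to under 2000 nt, 6 were positive. Among these exceptions were Ndufv3, with 1404 coding nt and a ratio of 0.41, and Ndufc1, with 228 coding nt and 0.32. Ndufb2, whose transcript of 4371 nt holds 315 coding nt, was the only positive gene of 2000 nt and over. Across the 77 nuclear members the log2 ratio and the log2 of transcript length had a Pearson r of -0.55 and a Spearman rho of -0.62. With coding length the values were -0.74 and -0.82, and across the 13 mitochondrial genes, also by coding length, -0.71 and -0.57. These points are genes of the same pair of libraries and are not independent.

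Short genes outside the respiratory chain were also higher on the median. Among genes that are neither members nor cytosolic ribosomal protein genes, the 183 under 600 nt had a median of 0.16, the 572 of 600 to under 1000 nt -0.10, the 2297 of 1000 to under 2000 nt -0.13 and the 7354 longer ones -0.047. By summed UMIs those under 600 nt had a log2 ratio of 0.38, against 0.34 for the short members. At 1000 to under 2000 nt the sums gave -0.15, against -0.12 for members, and at 2000 nt and over -0.067 against -0.18. By their sums, short genes outside the chain were thus shifted as far as the short members. Counted gene by gene they were shifted less. Of these 183 genes 127 were positive and 30.6% were called higher. All 19 short members were positive, 68.4% of them were called higher, and their median was 0.44. The 22 ribosomal protein genes under 600 nt had a median of 0.55, and cytosolic ribosomal protein genes together held 22.3% and 25.7% of UMIs. Over all those other genes the correlation with coding length was close to 0 (r 0.066, rho 0.12). The part of the ribosomal protein share in the length pattern of the members was not tested.

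**Figure D3:**
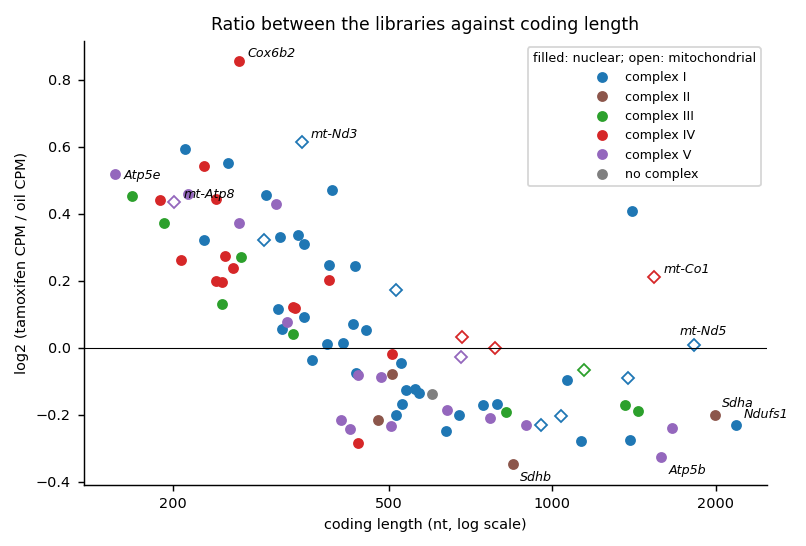
Log2 ratio of CPM (tamoxifen over oil, y axis) against coding length (x axis, nt, log scale) for the members reported here, with filled points for nuclear and open points for mitochondrially encoded genes, colored by complex. Points with short coding sequences lie mostly above 0 (Atp5e, 0.52) and long ones mostly below (Atp5b, -0.33), with mt-Co1 (0.21) and Ndufv3 (0.41, the filled point at 1404 nt) apart from the others.

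Promoters of genes that differed in opposite directions are shown for the motifs known from respiratory chain promoters. The following windows (RefSeq, GRCm38.p6, 5′ to 3′ on the strand of the gene, 250 bases before the listed start) belong to 2 short members that were higher and 2 longer ones that were lower, and were picked among windows with little or no annotated exon. Capitals mark a motif for NRF1 (GCGCATGC) or for GABPA and other ETS factors (CCGGAAG), read on either strand. The windows are chr2:174464102-174464351 for Atp5e, chr9:44920743-44920992 for Atp5l, chr6:126849145-126849394 for Ndufa9 and chr19:3912775-3913024 for Ndufs8, all on the minus strand.
Atp5e: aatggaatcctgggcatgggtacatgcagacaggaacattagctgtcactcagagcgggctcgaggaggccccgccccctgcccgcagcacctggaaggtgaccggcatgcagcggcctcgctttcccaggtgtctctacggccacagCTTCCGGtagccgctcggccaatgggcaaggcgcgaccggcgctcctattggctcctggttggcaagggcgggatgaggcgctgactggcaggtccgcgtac
Atp5l: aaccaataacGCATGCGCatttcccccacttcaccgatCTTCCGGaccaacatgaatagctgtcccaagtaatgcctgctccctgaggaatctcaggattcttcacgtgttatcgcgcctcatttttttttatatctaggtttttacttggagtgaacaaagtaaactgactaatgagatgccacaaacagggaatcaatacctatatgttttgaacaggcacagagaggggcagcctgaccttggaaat
Ndufa9: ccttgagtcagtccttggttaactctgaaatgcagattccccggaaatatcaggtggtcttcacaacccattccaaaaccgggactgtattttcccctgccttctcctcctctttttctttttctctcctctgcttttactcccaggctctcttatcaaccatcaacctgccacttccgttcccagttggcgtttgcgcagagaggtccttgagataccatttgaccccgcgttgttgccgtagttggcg
Ndufs8: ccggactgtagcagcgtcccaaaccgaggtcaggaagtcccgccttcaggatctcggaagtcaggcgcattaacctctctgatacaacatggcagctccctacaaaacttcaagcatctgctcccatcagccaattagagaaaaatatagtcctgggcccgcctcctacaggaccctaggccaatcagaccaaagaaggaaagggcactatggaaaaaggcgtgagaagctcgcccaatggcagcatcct
Atp5e holds the ETS motif, with its first base at position -102 from the start, and Atp5l holds the NRF1 motif at -240 and the ETS motif at -212, all on the reverse strand. The windows of Ndufa9 and Ndufs8 hold neither. The windows shown do not stand for all members of either direction. Among members with a negative log2 ratio, Sdhb and Ndufa8 held the NRF1 motif and Sdhd and Ndufs3 the ETS motif. Among members called higher, Ndufa1, Ndufa3, Cox7c, Uqcr10 and Atp5j2 held neither motif. Counts for both directions are given below. The capitals of the windows do not overlap.

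Over the 64 nuclear members with a promoter in the table, 8 (12.5%) held the NRF1 motif, against 2.32% of all 27025 promoters and 5.09% of those of 8160 genes with at least 100 UMIs. The ETS motif was in 11 (17.2%), against 7.05% and 16.1%. The YY1 motif (AAGATGGC) was in none, against 1.59% and 2.38%. At least 1 of the 3 motifs was in 8 of 17 promoters of members under 600 nt and in 3 of 24 of those of 1000 nt and over. Among members called higher it was in 5 of 15, and among those with a negative log2 ratio in 6 of 28. The counts are small, and a match is only a description of the letters in the window. Among the members without a matched promoter entry were Atp5a1, Atp5f1, Atp5s, Cox4i1, Cox6c, Ndufa2, Ndufb9, Ndufs1, Sdhc, Uqcrb, Uqcrc2 and Uqcrq.

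Other mitochondrial genes encoded in the nucleus were called lower more often than higher, as were all 10600 genes (10.8% lower and 6.92% higher). Of 18 tricarboxylic acid cycle genes none had a positive log2 ratio, 3 were called lower and the median was -0.20. Fh1 (fumarase) had a ratio of -0.38 and Idh3a, of isocitrate dehydrogenase, -0.35, while Suclg2 (-0.068) and Ogdh (-0.072) were nearest to 0. Of 24 import genes, 7 were called lower and 1 higher (median -0.25), with Tomm40, the channel of the outer membrane, and Timm8a1, a chaperone between the membranes, at -0.48 and the small subunits Tomm7 (0.53) and Pam16 (0.082) at the other end. Of 77 mitochondrial ribosomal protein genes, 7 were called lower and 1 higher (median -0.23), from Mrps22 (-0.47) and Mrpl12 (-0.45) to Mrpl33 (0.30) and Mrpl52 (0.50).

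The genes that express the mitochondrial genome and assemble the chain were also called lower more often than higher, in counts that stand beside the same shares over all genes. Of 36 genes of mitochondrial transcription and RNA handling, 8 were called lower and 1 higher (median -0.16). Fastkd3 (-0.45) and Fastkd2 (-0.43), RNA-binding proteins of the matrix, had the lowest ratios and Slirp, which stabilizes mitochondrial messenger RNA, the highest (0.44), followed by Top1mt at 0.12. Of 47 electron carriers and assembly factors, 6 were lower and 2 higher by that rule (median -0.14): Coa7 (-0.51) and Ecsit (-0.38) were lowest, and the copper chaperone Cox17 (0.58) and Pet100 (0.56), both factors of complex IV, highest. Of 12 measured nuclear regulators 2 were lower (median -0.13), the coactivator Pprc1 (-0.44) and the nuclear receptor Esrra (-0.38), and Max (0.066) and Ppargc1b (-0.014) were highest. The medians of these 6 lists were below that of all genes (-0.063), whereas the nuclear members had 0.015.

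Across cells, the summed shares of the 2 sets of genes had only a weak linear correlation. Each cell was thinned to 3000 UMIs, which left out 508 oil and 345 tamoxifen cells of lower depth. The mitochondrial share had a median of 6.90% in 6330 oil cells (quartiles 5.90% and 7.97%) and 6.87% in 6127 tamoxifen cells (quartiles 5.83% and 7.97%), and the nuclear share a median of 2.60% in both (quartiles 1.97% and 3.03%, and 1.93% and 3.17%). The SD over cells was 1.52 and 1.59 percentage points for the mitochondrial and 0.702 and 0.785 for the nuclear share, where counting alone gives 0.463 and 0.461, and 0.285 and 0.289. Cells therefore differed by more than sampling in both sets. Without thinning the median mitochondrial shares were 6.82% and 6.84% and the median nuclear shares 2.58% in both libraries. The mitochondrial share and the nuclear share, the latter taken over UMIs that are not mitochondrial, had a Pearson r of 0.054 in oil and 0.12 in tamoxifen cells. In bins of the mitochondrial share, the median nuclear share of all UMIs rose and then fell. At 2 to 3%, 6 to 7% and 9 to 10% mitochondrial UMIs it was 2.07%, 2.70% and 2.40% in oil cells. In tamoxifen cells it was 1.67%, 2.73% and 2.47%. The lowest of these bins held only 44 and 61 cells.

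Nuclear complexes varied together from cell to cell. Complexes I and IV had an r of 0.52 in oil and 0.58 in tamoxifen cells, complexes I and V 0.59 and 0.62, and complexes IV and V 0.58 and 0.64. Within the mitochondrial genome complexes IV and V had an r of 0.66 and 0.69, but complexes I and IV only 0.23 and 0.18. Between genomes, the mitochondrial and nuclear genes of complex I had an r of 0.35 and 0.39, those of complex V 0.041 and 0.058, and those of complex IV -0.13 and -0.098. Short and long nuclear members, which differed in opposite directions between libraries, varied together within them (r 0.50 and 0.56). The points are cells of 1 library each that share its depth and its free RNA, and the shares in a cell compete for the same UMIs.

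**Figure D4:**
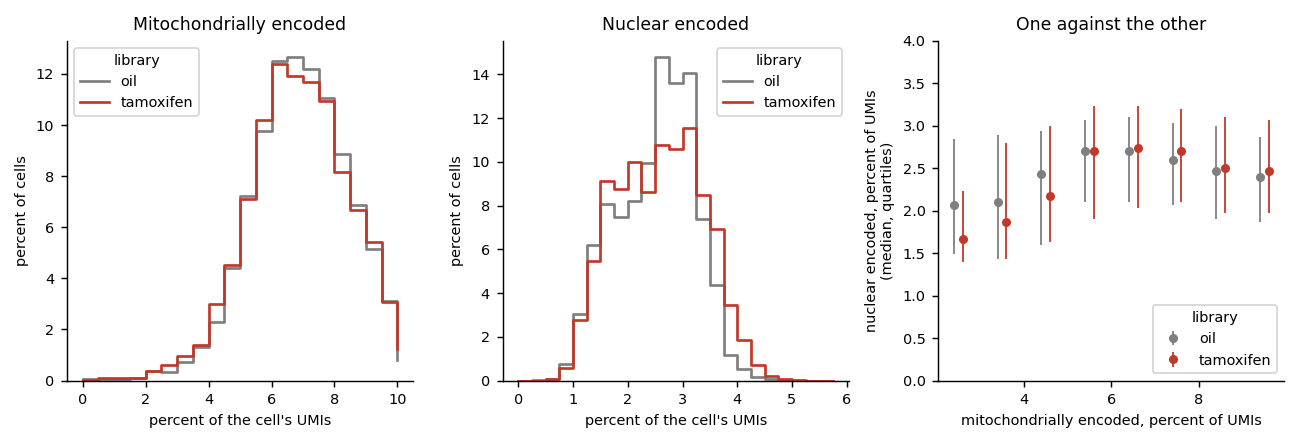
Percent of cells (y axis) by the percent of their UMIs from mitochondrially (left) and nuclear encoded members (middle) in each library, with cells thinned to 3000 UMIs, and the median nuclear percent with its quartiles in bins of the mitochondrial percent (right). The nuclear shares of tamoxifen cells spread wider (SD 0.785) than those of oil cells (SD 0.702), and the medians on the right change little between 5 and 10% mitochondrial UMIs.

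The nuclear share was lowest in cells called G1. Phases were called on the thinned cells from 42 S-phase and 52 G2/M genes, none of them a member. In the oil library the nuclear share was 2.03% in 2439 G1 cells, 2.88% in 1465 S cells and 2.76% in 2426 G2/M cells, and in the tamoxifen library 2.20%, 3.07% and 2.90% in 3060, 1024 and 2043 cells. The mitochondrial share was highest in G1 cells, with 7.13%, 6.83% and 6.72% in G1, S and G2/M cells of the oil library and 6.97%, 6.74% and 6.74% in the tamoxifen library. G1 cells were shallower: their median depth before thinning was 5830 and 6247 UMIs, against 12246 and 12835.5 in S and 12389.5 and 11418 in G2/M. Within the middle of 3 equal groups of cells by depth the nuclear share was still lower in G1 cells, at 2.47% in both libraries, against 2.83% and 2.90% in S and 2.74% and 2.89% in G2/M cells. The mitochondrial share there was 7.52%, 7.26% and 7.06% in G1, S and G2/M cells of the oil library and 7.37%, 7.38% and 7.03% in the tamoxifen library, so in the latter it was not highest in G1. The part of free RNA in these phase calls was not tested.

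Most nuclear members took part in this difference. In both libraries 68 of 77 had an interval below 0 for G1 over the other cells, with a median log2 ratio over all 77 of -0.49 in oil and -0.45 in tamoxifen cells. Atp5g1, of the c ring, had the lowest values (-1.08 and -1.05), and the small complex III subunit Uqcrq followed (-1.04 and -1.0). An interval above 0 in both libraries was found for 3 members, Ndufa6 (0.59 and 0.46), Ndufa1 (0.41 and 0.30) and Cox7a2l (0.35 and 0.34). Of the mitochondrial genes 7 were lower in G1 cells in both libraries, among them mt-Nd1 (-0.47 and -0.55) and mt-Nd2, and 4 were higher, among them mt-Co1 (0.44 and 0.37), mt-Co3 and mt-Co2. The fourth higher gene was mt-Atp6 of complex V, and the interval of mt-Nd6 held 0 in the tamoxifen library and that of mt-Atp8 in both.

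G1 cells made up 38.5% of oil cells and 49.9% of tamoxifen cells, so the difference between libraries was taken again within each phase. The nuclear sum had log2 ratios of 0.11 in G1, 0.090 in S and 0.074 in G2/M cells. Members under 600 nt had 0.38, 0.37 and 0.36, and those of 1000 nt and over -0.068, -0.10 and -0.12. Complex IV had 0.23, 0.24 and 0.20 and complex II -0.18, -0.27 and -0.21. Of the 77 nuclear members 68 had the same sign in all 3 phases, 39 positive and 29 negative, and so had 11 of the 13 mitochondrial genes. The opposite directions of short and long members were thus present within each phase, and the mitochondrial sum had ratios of -0.031, -0.020 and 0.0037.

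**Figure D5:**
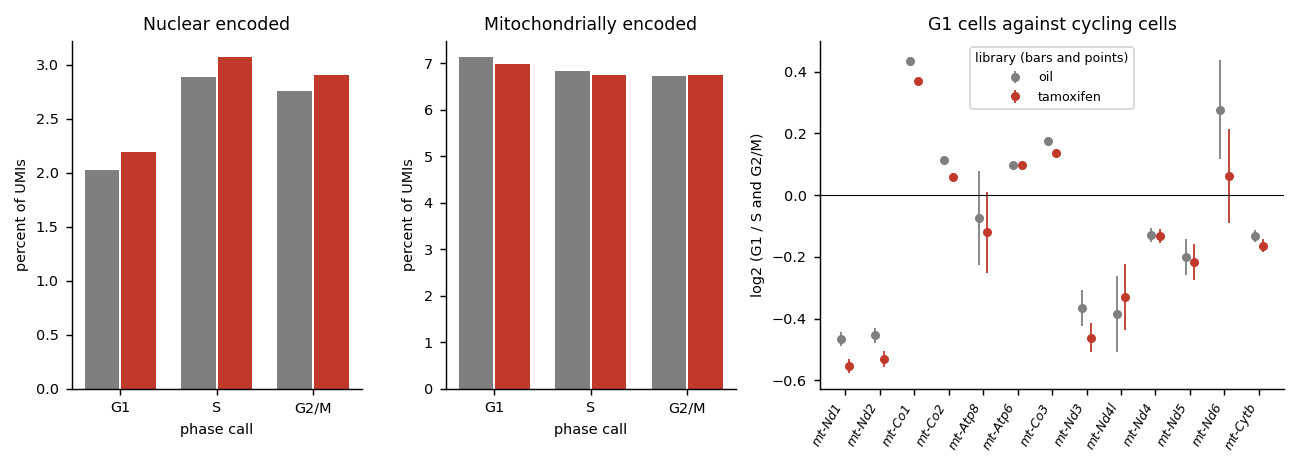
Percent of UMIs from nuclear (left) and mitochondrially encoded members (middle) in cells called G1, S and G2/M in each library (bars from 0), and the log2 ratio of G1 cells over S and G2/M cells for each mitochondrial gene with its 95% exact counting interval (right). The nuclear bars are lowest in G1 (2.03% and 2.20%), and mt-Co1 (0.44 and 0.37) stands above 0 where mt-Nd1 (-0.47 and -0.55) and mt-Nd2 stand below.

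Cells high in mast cell genes carried fewer nuclear respiratory chain UMIs. In the tenth of oil cells with the most UMIs of the mast cell list the nuclear share was 1.68%, against 2.61% in the other cells (log2 ratio -0.64; -0.65 to -0.62), and in tamoxifen cells 1.82% against 2.67% (-0.55; -0.57 to -0.53). Cells with the most Kit UMIs, the receptor used for the sort, also had a lower nuclear share, with log2 ratios of -0.53 and -0.60. For the erythroid list the ratios were -0.23 and -0.18, and for the interferon-stimulated list -0.081 and -0.11. The mitochondrial share moved little beside this, with ratios for mast cell genes of 0.023 in oil and -0.067 in tamoxifen cells. Depth and phase moved with these programs: the cells highest in mast cell genes had a median of 4492 and 4760 UMIs against 10034 and 9158 in the others, and 85.3% and 86.0% of them were called G1. Of the cells highest in Kit, 78.7% and 86.9% were called G1. For Kit and for the interferon-stimulated list the cut lay at only 2 UMIs per cell in oil and 3 in tamoxifen cells, with ties taken in barcode order. Within the middle of 3 equal groups of cells by depth the nuclear share was 1.97% against 2.69% in oil and 1.99% against 2.69% in tamoxifen cells for the mast cell list. For the interferon-stimulated list the difference was smaller there, at 2.65% against 2.66% in oil and 2.59% against 2.66% in tamoxifen cells.

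The nuclear share also rose with depth, where phase was not held fixed. From the lowest to the highest of these groups it was 1.94%, 2.66% and 2.91% in the oil library and 2.00%, 2.66% and 3.08% in the tamoxifen library, while the mitochondrial share was highest in the middle group (7.28% and 7.26%). Over all barcodes, grouped by their mitochondrial share, the nuclear members held most of the other UMIs at 5 to 10% mitochondrial UMIs (2.90% and 3.03%) and least above 20% (1.79% and 1.98%). Members under 600 nt were higher in the tamoxifen library in every such group of barcodes, with log2 ratios between 0.30 and 0.39.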

How the data were processed

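The deposited files held UMI counts per gene and cell barcode, which per the labels and file headers the authors made with Cell Ranger 3.0.2 on mm10 from Chromium 3′ V3 libraries; the annotation release was not given in the sources used here, and no other normalization was applied. No test with p-values was run, since each group had 1 library (n = 1). Cells with 500 or more genes and no more than 10% mitochondrial UMIs were kept (936 oil and 839 tamoxifen barcodes left out), no doublet caller was used, and counts were summed per library, scaled to an equal total (CPM) and compared as log2 ratios with 95% exact intervals, Poisson for levels and conditional binomial for ratios. A gene was called higher or lower at a log2 ratio of 0.32 or more in size, among genes with at least 100 UMIs. Lengths came from GENCODE M21 (1 principal transcript per gene). Cells were thinned to 3000 UMIs and phases called with scanpy 1.11.5. Members and lists were chosen with earlier results of these data known. Genes named were all mitochondrial members, the 3 highest and 3 lowest ratios per nuclear complex (1 gene among these is counted in the sums but not reported here), all of complex II, tissue isoforms, and the 2 highest and 2 lowest of each pathway list; genes named beyond this (exceptions to the length pattern, phase extremes and promoters) were picked after their values were seen. Alternatives were other cell filters, TMM (edgeR 4.0.16), median ratios, another library total, equal weight per cell, other UMI minimums and thinning depths. The calculations were tested on simulated data (scipy 1.17.1 and numpy 2.4.6 in Python 3.11.15, R 4.3.3).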

Additional observations from a re-analysis of the deposited data

Results flagged for a closer look

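The nuclear genes of complex V had a log2 ratio of tamoxifen over oil of 0.020 in G1 cells and -0.036 in G2/M cells, opposite directions in the 2 phases. The difference was not tested. The mitochondrial share in cells highest in mast cell genes over other cells had a log2 ratio of 0.023 in the oil library and -0.067 in the tamoxifen library, a change of direction that was also not tested. Barcodes with over 20% mitochondrial UMIs, which enter no comparison of kept cells, still held nuclear members: 1.98% of their UMIs that are not mitochondrial in the tamoxifen library, against 1.79% in the oil library, with median depths of 1157 and 1191 UMIs in 157 and 208 barcodes.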

How the results depend on the processing

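No paired analysis was possible because there was 1 library for each injection. With 1000 or more genes and no more than 5% mitochondrial UMIs the log2 ratios were -0.00051 for the mitochondrial sum, -0.013 for the nuclear sum, 0.012 for mitochondrial over nuclear UMIs and -0.0081 for nuclear complex I, all reversed in sign. The intervals of the mitochondrial sum (-0.0094 to 0.0084) and of nuclear complex I (-0.030 to 0.014) held 0. The same filter gave 0.32 for complex IV over complex II, 0.52 for short over long members, and 13 members called lower and 15 higher, where 2228 and 1689 of all 10600 genes were. With mitochondrial and cytosolic ribosomal protein genes left out of the total, mitochondrial complex III (0.0032) and nuclear complex V (0.011) reversed, and mitochondrial complex V did so there (0.047), with TMM (0.019) and with median ratios (0.015). Across cells thinned to 5000 UMIs the oil correlation was -0.0064. The mitochondrial sum was 0.0095 over all barcodes, 0.0089 without the mitochondrial limit, 0.014 with a limit of 20%, 0.048 with TMM, 0.044 with median ratios and 0.076 with the reduced total, and the nuclear sum 0.098, 0.094 and 0.13 under the last 3, 0.047 without the 6% deepest cells and 0.047 with equal weight per cell. Mitochondrial over nuclear UMIs gave -0.042 with the 20% limit, -0.039 without the deepest cells and -0.040 with equal weight. Short over long members gave 0.52 when split by coding length, 0.50 in the middle group of cells by depth, 0.45 in G1 and 0.48 in G2/M cells. Members called lower numbered 0 with TMM, median ratios and the reduced total. The causes were not tested.

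Of the 90 members 76 kept their sign over all 11 alternative settings. The comparison of short and long members, settings within phases and the split by coding length were added after the data were seen. The limits are the single library per group, genes such as Cox6b2 with few UMIs, reads shared with near-identical copies and overlapping genes, which were not examined, and counts of 3′ ends only.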
